A study of Mus musculus with 18 samples.

Results

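Disruption of the LINC complex on a soft substrate was examined in 6 of the 18 small RNA libraries of the series, 3 of the SUN1L line and 3 of the KDEL line, all on 1 kPa gels. The libraries were picked by their labels, a rule that uses no measured value. All cells were mouse NIH 3T3 TetON fibroblasts carrying a retroviral pRetroX.Tight vector, kept for 48 h in doxycycline at 1 µg/ml. In the SUN1L groups the vector encoded SS-HA-Sun1L-KDEL, a tagged luminal part of SUN1 retained in the endoplasmic reticulum, which displaces nesprins from the nuclear envelope. In the KDEL groups it encoded SS-GFP-KDEL, a GFP held in the same compartment, so doxycycline, vector and retention signal were shared by both lines. The gels were polyacrylamide coated with fibronectin, and no inhibitor of contractility was added to these 6 libraries. The other libraries of the series, used only where stated, came from 308 kPa gels. They were of both lines without inhibitor and of the KDEL line with blebbistatin at 10 µM or Y27632 at 25 µM. Each construct was carried by its own stable line, and sorting by fluorescence is described for the KDEL line alone, so the effect of the construct and any other difference between the lines cannot be told apart. The study calls its replicates biological but does not say how the cultures were separated, so each p-value rests on the library spread alone, which may be technical.

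The LINC complex consists of SUN proteins in the inner and nesprins in the outer nuclear membrane, and it couples the cytoskeleton to the nuclear lamina. On soft gels fibroblasts build few stress fibers, so that little force reaches this bridge. A miRNA is cut from a hairpin whose 5p or 3p arm is loaded into Argonaute, and the bases of its seed select the target mRNAs. miRNAs of one cluster are cut from a shared transcript, while miRNAs of one seed family can come from different chromosomes and still share targets.

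The mature sequences that carry the comparison are given here from RefSeq (GRCm38.p6), with the seed, bases 2 to 8, in capitals. The first set holds the 9 miRNAs that were higher in the SUN1L line, of which miR-465b-5p and miR-465c-5p are near-identical copies with the same seed.
miR-881-3p: aACUGUGUcuuuucugaauaga
miR-871-3p: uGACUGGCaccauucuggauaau
miR-465b-5p: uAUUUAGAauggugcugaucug
miR-465c-5p: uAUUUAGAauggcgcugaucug
miR-470-5p: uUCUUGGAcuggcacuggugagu
miR-216a-3p: cACAGUGGucucugggauuaug
miR-217-5p: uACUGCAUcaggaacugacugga
miR-184-3p: uGGACGGAgaacugauaagggu
miR-200a-5p: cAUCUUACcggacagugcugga
The next set shows the seed family of miR-15 and miR-16, followed by miR-503-5p, whose seed differs from theirs in the last base. This family is shown because each of its 6 tested members was lower in the SUN1L line.
miR-15a-5p: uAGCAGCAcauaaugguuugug
miR-15b-5p: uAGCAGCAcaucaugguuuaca
miR-16-5p: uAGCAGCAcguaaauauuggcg
miR-195a-5p: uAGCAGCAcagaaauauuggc
miR-322-5p: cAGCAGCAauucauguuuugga
miR-497-5p: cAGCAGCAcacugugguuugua
miR-503-5p: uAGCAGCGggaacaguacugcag
The last set is the seed family of miR-17, whose 4 tested members come from 2 clusters and were also lower.
miR-17-5p: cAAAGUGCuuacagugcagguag
miR-20a-5p: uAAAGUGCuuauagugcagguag
miR-93-5p: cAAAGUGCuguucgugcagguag
miR-106b-5p: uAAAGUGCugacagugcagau

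In units of 1e6, the deposited values corresponded to 6.17, 4.17 and 6.38 reads in KDEL libraries 1 to 3 and to 4.12, 2.77 and 8.49 in SUN1L libraries 1 to 3. The floor of the table is a value of 1, and 1 read was worth 0.666 to 1.19 in the 6 libraries. Of the 20 fibroblast marker arms, such as those of miR-199, miR-214, miR-143, miR-21a, miR-22 and miR-31, all were detected, and together they took 46.3 to 55.6% of the reads in KDEL and 48.7 to 56.2% in SUN1L libraries. Markers of blood, liver, endothelium, muscle and stem cells took 0.0241 to 0.0282% in KDEL and 0.0178 to 0.0256% in SUN1L libraries, and 17 of their 54 arms exceeded the floor. These 2 ranges overlapped. Epithelial markers, the miR-200 family and miR-205, were listed apart. Together they took 0.0031, 0.0044 and 0.0050% in KDEL and 0.0060, 0.0074 and 0.0085% in SUN1L libraries, without overlap. Their members did not all move this way, since miR-205-5p had a log2 fold change of -1.61. Outside these 6 libraries, the third blebbistatin-treated library stood apart from its group, and its values enter only where stated.

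The 10 most abundant miRNAs formed a larger part of the SUN1L libraries than of the KDEL libraries. They took 64.1, 63.4 and 55.4% of the reads in the 3 KDEL libraries and 69.3, 76.9 and 72.9% in the 3 SUN1L libraries, without overlap. An exact permutation test, two-sided, gave p = 0.1, the smallest value that 3 against 3 libraries allow. Outside miR-21a-5p, the most abundant miRNA and one known for its part in fibrosis, the other 9 took 42.5 ± 2.58% of the remaining reads in KDEL and 56.5 ± 6.91% in SUN1L libraries (SD, n = 3 each, exact permutation p = 0.1). miR-21a-5p itself held 38.1, 33.1 and 25.4% of the reads in KDEL and 37.8, 35.6 and 40.3% in SUN1L libraries, which overlap (exact permutation p = 0.3). With reads concentrated in few miRNAs, the scaling of the libraries bears on many of the calls given from here on.

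Of 396 miRNAs tested, 9 (2.27%) were higher and 74 (18.7%) lower in the SUN1L line on 1 kPa at an adjusted p under 0.05 (limma on log2(value + 1), Benjamini-Hochberg over the 396). The median log2 fold change of all 396 miRNAs was -0.72, and 312 of them lay below 0. Rescaling by median of ratios moved this median to 0.02 and turned the counts to 54 higher and 53 lower, and quantile scaling gave 42 and 35. Called under all of the deposited, median-of-ratios, TMM and quantile scalings were the 9 higher and 31 (7.83%) of the lower miRNAs, so the 9 and the 31 are the calls shared by these 4 scalings. Of the 9, 7 reached the value of 10 that testing required in 3 libraries through the SUN1L libraries alone, and 8 of the 74 did so through the KDEL libraries alone, so those calls are partly fixed by the filter. A further 30 miRNAs were called higher only after rescaling, with deposited log2 fold changes of 0.27 to 1.49; with the 9 they are the 39 (9.85%) that the 3 rescalings share. At an unadjusted p under 0.05, 23 were higher and 145 lower.

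Single libraries decided much of the lower count. With KDEL library 1 or KDEL library 3 left out, 0 miRNAs were called lower and 5 higher (limma, Benjamini-Hochberg), and those 5 were the X-linked miRNAs described next. Without KDEL library 2 the counts were 8 higher and 33 lower, and without SUN1L library 2, the lowest of the 6 in 72 of the 74 lower miRNAs, they were 21 and 106. Libraries with neighboring numbers deviated together, and a block for each such run gave 24 (6.06%) higher and 166 (41.9%) lower. With all 18 libraries in the fit, and so with the spread of the third blebbistatin library, 5 were higher and 0 lower.

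**Figure D1:**
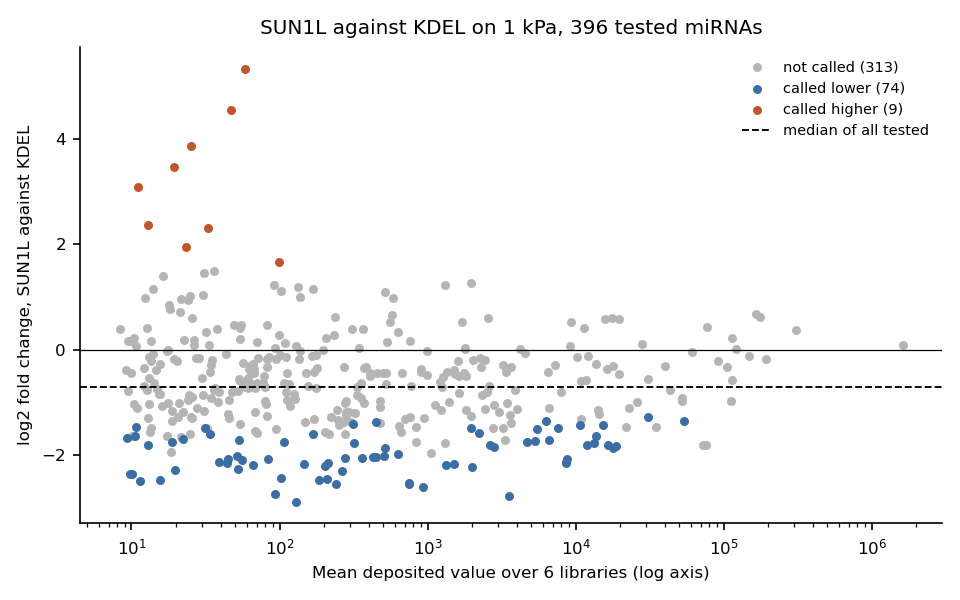
Log2 fold change of SUN1L against KDEL on 1 kPa (y axis) against the mean deposited value over the 6 libraries (x axis, log scale), one point for each of the 396 tested miRNAs, with the median of -0.72 as a dashed line. The 9 miRNAs called higher lie at low mean values, while the 74 called lower spread over all levels.

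The 5 miRNAs with the largest increase came from one region of the X chromosome, in a cluster known for expression in the testis. miR-881-3p was at 4.19, 1.06 and 1.0 in the 3 KDEL libraries and at 79.8, 129 and 135 in the 3 SUN1L libraries. miR-871-3p was at 1.68, 4.25 and 2.31 in KDEL and at 44.6, 126 and 103 in SUN1L libraries. In both miRNAs the lowest SUN1L library lay far above the highest KDEL library. On the log2 scale miR-881-3p was 5.34 ± 0.49 (SE) higher by limma, with a Benjamini-Hochberg adjusted p = 0.000118. For miR-871-3p the difference was 4.55 ± 0.50 (limma adjusted p = 0.000356).

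The other called members were miR-465b-5p, miR-465c-5p and miR-470-5p. miR-465b-5p was at 1.68, 5.32 and 1.0 in KDEL and at 37.3, 62.8 and 42.6 in SUN1L libraries, with a log2 fold change of 3.87 ± 0.51 (limma adjusted p = 0.000923). miR-465c-5p was at 3.35, 1.06 and 3.08 in KDEL and at 31.1, 33.2 and 44.6 in SUN1L libraries, and because it differs from miR-465b-5p by few bases their reads can be shared. miR-470-5p was at 1.0, 2.13 and 1.54 in KDEL and at 16.6, 21.3 and 24.0 in SUN1L libraries. No KDEL library overlapped a SUN1L library in any of the 5, and their log2 fold changes ran from 3.09 to 5.34.

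The KDEL side of these ratios rests on few reads. In total 6 reads of miR-881-3p were counted in the KDEL libraries against 389 in the SUN1L libraries, a ratio per library depth of 67.2 with an exact 95% interval of 30.6 to 184, which covers counting error only. If the value of 1 in KDEL library 3 stood for 1 read, the ratio would be 57.6 (27.7 to 144). For miR-871-3p there were 9 against 304 reads, a ratio of 35.0 (18.2 to 77.4). miR-470-5p had 4 against 70 reads, a ratio of 18.2 (6.78 to 68.5), or 14.5 (5.93 to 46.1) with such a hidden read. The intervals are wide. That none of them reached equality was largely fixed in advance, because these miRNAs were chosen as called higher in the same libraries.

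Members of the cluster too low to be tested went the same way. Of the 34 arms of the list in the table, 22 had a read in any of the 6 libraries, 5 reached the value of 10 in 3 libraries that testing required, and in 14 every SUN1L library lay above every KDEL library. Over all 910 miRNAs with a value above the floor the groups lay apart in this direction in 51 (5.6%), and over the 396 tested in 35 (8.84%). Among the 14, miR-883a-3p and miR-471-3p had 8 and 7 reads in the SUN1L libraries, and their ratios were not resolved from equality once hidden KDEL reads were allowed. The 5 tested arms met this requirement through the SUN1L libraries alone, so their count is partly fixed by it. miR-878-5p had 41 reads in the SUN1L libraries and none counted in the KDEL libraries, so that its SUN1L mean of 11.9 was at least 4.46-fold higher, taking 3 reads in each KDEL library as the floor. miR-741-3p had 44 reads against 2, a ratio of 22.8 with a counting interval of 5.95 to 194, or 11.4 (4.15 to 43.7) with 2 hidden KDEL reads. The 3p arms of miR-465a, miR-465b and miR-465c had identical values and count as 1 profile, with 27 reads against 1. Arms such as miR-743a-3p, miR-743a-5p, miR-463-5p and miR-871-5p stayed at 1 or 2 reads in the SUN1L libraries and were not resolved from the KDEL libraries at this depth. Together the cluster gave 2.11, 4.32 and 1.88 reads per 1e6 in KDEL and 66.8, 132 and 76.0 in SUN1L libraries. The arms with reads lie on the minus strand of chromosome X between 66776760 and 66839121 (GRCm38), a span of 62.4 kb.

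Beyond the X chromosome, 4 miRNAs were higher. miR-216a-3p and miR-217-5p come from chromosome 11, from a cluster that is typical of the pancreas. miR-216a-3p was at 1.68, 5.32 and 3.85 in KDEL and at 15.5, 28.5 and 22.6 in SUN1L libraries, with a log2 fold change of 2.38 ± 0.47 (limma adjusted p = 0.016), and it was tested only because its SUN1L libraries reached 10. miR-217-5p was at 23.5, 67.0 and 59.3 in KDEL and at 118, 149 and 180 in SUN1L libraries, with a log2 fold change of 1.67 ± 0.48 (limma adjusted p = 0.0356). Neither overlapped between the lines. The other tested arms of the cluster, miR-216a-5p and miR-216b-5p, had log2 fold changes of 1.16 and 1.11 and were called only after rescaling or with a block, under which 4 of 4 were higher.

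miR-184-3p, best known from the eye and brain, was at 8.38, 12.8 and 10.0 in KDEL and at 50.8, 61.6 and 53.3 in SUN1L libraries. These are tight groups with no overlap, and the log2 fold change was 2.32 ± 0.40 (limma adjusted p = 0.00747). miR-200a-5p, from a hairpin of the epithelial miR-200 family, was at 7.54, 9.57 and 9.24 in KDEL and at 25.9, 43.9 and 43.3 in SUN1L libraries. It too was tested only through its SUN1L libraries. Its log2 fold change was 1.95 ± 0.42 (limma adjusted p = 0.018), while the other arm of its hairpin, miR-200a-3p, was at 38.5, 39.4 and 55.4 against 62.2, 37.9 and 95.2 and overlapped. miR-205-5p, also listed with epithelial miRNAs, had a log2 fold change of -1.61 and overlapping groups, so the list of 5 tested members ran from -1.61 to 1.95 with 1 called as deposited. Under each of the median-of-ratios, TMM and quantile scalings 3 of the 5 were higher and 0 lower, and with the block 2 were higher and 1 lower. miR-200b-3p, the most abundant of them, was at 46.1, 106 and 89.3 in KDEL and at 130, 147 and 279 in SUN1L libraries, without overlap but not called as deposited. The calls of miR-184-3p, miR-200a-5p, miR-216a-3p and miR-217-5p were lost with KDEL library 1 or 3 left out.

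**Figure D2:**
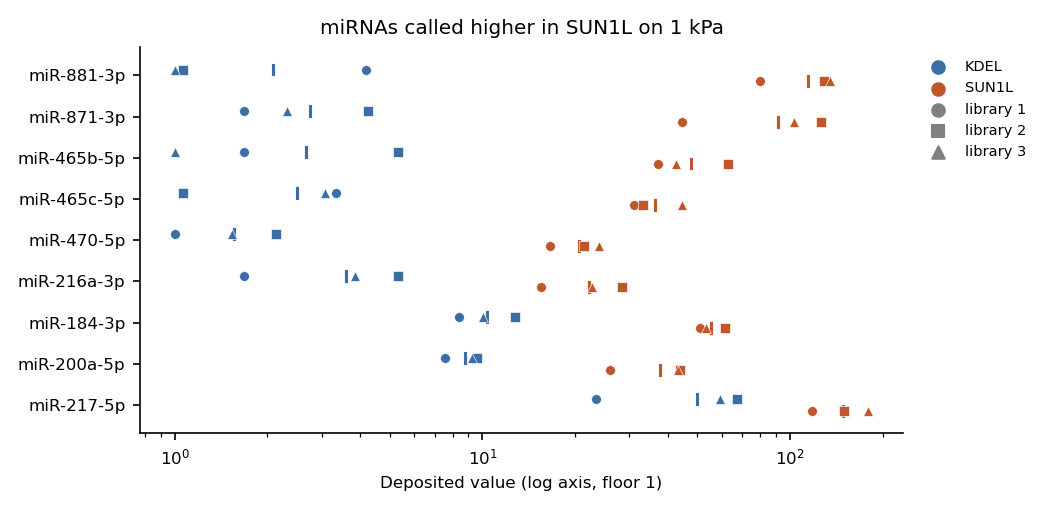
Deposited values (x axis, log scale, floor 1) of the 9 miRNAs called higher in the SUN1L line on 1 kPa, one marker per library with its shape giving the library and vertical ticks the group means. No KDEL library overlaps a SUN1L library, and miR-881-3p runs from 1.0 to 4.19 in KDEL and from 79.8 to 135 in SUN1L libraries.

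The 74 lower miRNAs had log2 fold changes of -2.89 to -1.28, with a median of -2.02, and group means of 14.8 to 43.6% of the KDEL mean. In each of them the 3 SUN1L libraries lay below the 3 KDEL libraries, as in 179 (45.2%) of all 396. Their adjusted p-values were close together, from 0.016 to 0.048 (limma, Benjamini-Hochberg).

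The largest decrease was that of miR-362-3p, from a cluster in the Clcn5 gene on the X chromosome. It was at 257, 148 and 259 in KDEL and at 74.6, 10.7 and 26.6 in SUN1L libraries, with a log2 fold change of -2.89 ± 0.62 (limma adjusted p = 0.0186). Of the 8 arms tested within 10.8 kb there, 4 were lower, namely miR-362-3p, miR-362-5p, miR-501-5p and miR-532-3p, against 18.7% of all tested miRNAs. All 4 were lower under all 4 scalings, as were 7.83% of all tested miRNAs. The other 4 were not called. One of these was miR-532-5p, the opposite arm of miR-532-3p, at 8541, 10516 and 10091 in KDEL and at 12032, 10872 and 16078 in SUN1L libraries.

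miR-17-5p belongs to a cluster that MYC and E2F induce and that promotes proliferation. It was at 6663, 4242 and 7184 in KDEL and at 1685, 270 and 1351 in SUN1L libraries. The lines did not overlap, and SUN1L library 2 was the lowest. The log2 fold change was -2.79 ± 0.63 (limma adjusted p = 0.0208). Of the 16 tested arms of this cluster and its paralogs 9 were lower and 0 higher, 13 were lower with the block, and 3 were lower under all 4 scalings. Over all tested miRNAs these lower shares were 18.7%, 41.9% and 7.83%. The median log2 fold change of the 16 arms was -1.84 against -0.72 over all tested miRNAs.

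Within these clusters the arms differed. The 4 members with the seed AAAGUGC, miR-17-5p, miR-20a-5p, miR-93-5p and miR-106b-5p, were all lower, at log2 fold changes of -2.79 to -2.14, but under quantile scaling the call of miR-17-5p alone remained. miR-92a-3p, cut from the same transcript as miR-17-5p but with another seed, was at 9289, 12667 and 17331 in KDEL and at 9482, 6621 and 9477 in SUN1L libraries and overlapped (log2 fold change -0.59, limma adjusted p = 0.25). miR-25-3p, which shares a transcript with miR-93-5p and miR-106b-5p, had a log2 fold change of -1.16 and was not called (limma adjusted p = 0.0556).

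The family of miR-15 and miR-16, whose members repress cyclins and other drivers of the cell cycle, had 6 of 10 tested arms lower, 5 of them under all 4 scalings. Over all tested miRNAs these shares were 18.7% and 7.83%. miR-15b-5p was at 1056, 1040 and 1670 in KDEL and at 337, 90.1 and 296 in SUN1L libraries, with a log2 fold change of -2.55 ± 0.54 (limma adjusted p = 0.0178). miR-16-5p, the most abundant of the family, was at 4454, 3170 and 5126 in KDEL and at 1912, 426 and 1905 in SUN1L libraries, and its call was lost under quantile scaling (limma adjusted p = 0.0435 as deposited, adjusted p = 0.076 there). Over the 6 members with the seed AGCAGCA, which come from chromosomes 3, 11, 14 and X, the log2 fold changes ran from -2.61 to -1.85, and 6 of 6 were lower. miR-195a-3p, a passenger arm of the family without that seed, was at 208, 277 and 311 in KDEL and at 249, 382 and 430 in SUN1L libraries and overlapped.

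The cluster of miR-322, miR-503, miR-351, miR-542 and miR-450 on the X chromosome, whose lead members restrain the cell cycle through the same or a close seed, had 9 of 12 tested arms lower, 6 of them under all 4 scalings and 12 of 12 with the block. Over all tested miRNAs these shares were 18.7%, 7.83% and 41.9%. miR-503-5p was at 1360, 932 and 1468 in KDEL and at 251, 104 and 354 in SUN1L libraries, with a log2 fold change of -2.54 ± 0.50 (limma adjusted p = 0.016). miR-322-5p was at 1864, 1087 and 1667 in KDEL and at 344, 79.4 and 540 in SUN1L libraries. In all 12 arms, which lie within 6.32 kb on the minus strand between 53048008 and 53054327, the SUN1L libraries lay below the KDEL libraries, against 45.2% of all tested miRNAs. The cluster took 0.604, 0.567 and 0.595% of the reads in KDEL and 0.251, 0.185 and 0.261% in SUN1L libraries, so that the KDEL libraries were close to each other and well above the SUN1L libraries.

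The X chromosome was uneven in both directions, a pattern chosen after its values were seen. Of the 46 miRNAs tested there 5 were higher and 20 lower (43.5%), against 54 of 350 lower (15.4%) elsewhere, and 9 and 4 of the 20 came from the 2 clusters just described. miR-221-3p, known for repressing p27 and so releasing the cell cycle, was among them at 12300, 11122 and 17281 in KDEL and 6094, 1127 and 4534 in SUN1L libraries. Its neighbor miR-222-3p, with which it shares a seed, was at 6347, 7386 and 8693 against 5392, 4506 and 6876 and overlapped, and the call of miR-221-3p was lost under quantile scaling (limma adjusted p = 0.076).

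**Figure D3:**
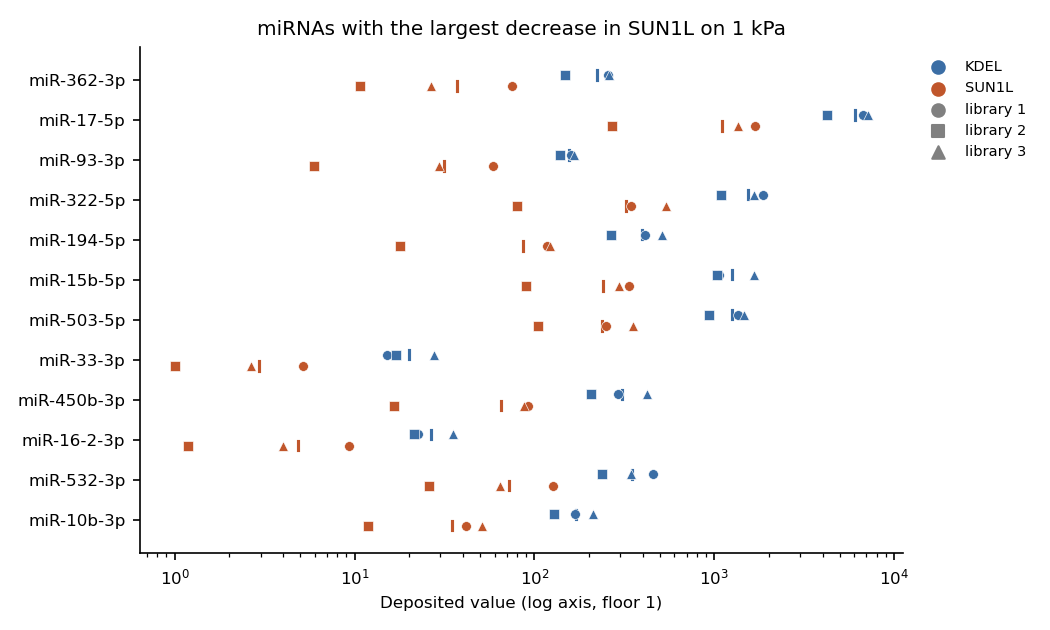
Deposited values (x axis, log scale, floor 1) of the 12 miRNAs with the largest decrease in the SUN1L line on 1 kPa, one marker per library with vertical ticks at the group means. In each the SUN1L libraries lie below the KDEL libraries, and SUN1L library 2 (square) is the lowest, at 270 for miR-17-5p.

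Among the abundant miRNAs, let-7, the differentiation-associated repressors of Ras and Hmga2, had 4 of 21 tested arms lower, a share close to the 18.7% of all tested miRNAs, and 14 with the block, which called 41.9% of all. Under all 4 scalings only let-7b-5p was lower. let-7b-5p was at 16797, 14764 and 22899 in KDEL and at 8896, 3129 and 4746 in SUN1L libraries, a log2 fold change of -1.81 ± 0.44 (limma adjusted p = 0.0239). let-7i-5p and let-7f-5p, among the 10 most abundant miRNAs, had log2 fold changes of -0.17 and 0.02 and overlapped. The members of one family thus ran from -1.81 to 0.02, and their reads can be shared because they differ by few bases.

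miR-125b-5p, the most abundant of the called miRNAs and known to act on p53 signaling, was at 73197, 70355 and 82671 in KDEL and at 43648, 14468 and 40509 in SUN1L libraries. Its log2 fold change of -1.35 was called as deposited (limma adjusted p = 0.0476) but not under median-of-ratios scaling (adjusted p = 0.107). miR-100-5p, of the same list and often clustered with let-7, went the other way, at 112500, 141400 and 125860 in KDEL and at 162070, 211620 and 241380 in SUN1L libraries, without overlap. It was called higher only after rescaling (deposited log2 fold change 0.68, limma adjusted p = 0.108, median-of-ratios adjusted p = 0.00939).

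miR-30c-5p, miR-30e-5p, miR-31-5p, miR-140-5p, miR-23a-3p and miR-26b-5p, all abundant in these fibroblasts, were lower with log2 fold changes of -1.87 to -1.65. Of these only miR-30c-5p and miR-140-5p were lower under all 4 scalings. miR-140-5p, known from cartilage, was at 28027, 21041 and 35231 in KDEL and at 11297, 2915 and 13862 in SUN1L libraries. None of the 10 most abundant miRNAs was called. Of them miR-143-3p, typical of smooth muscle and fibroblasts, had SUN1L libraries all above the KDEL libraries, at 308050, 293340 and 445350 against 261420, 254660 and 280790 (log2 fold change 0.37, limma adjusted p = 0.339).

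Several lists tied to matrix or force had no member called as deposited. The miR-29 family, repressors of collagen genes, had 0 of 7 tested arms called, and its median on the log2 scale was -1.37. With the block 5 of the 7 were lower, against 41.9% of all tested miRNAs. miR-29a-3p was at 55514, 37290 and 55289 in KDEL and at 28540, 7113 and 26806 in SUN1L libraries (limma adjusted p = 0.0616), and its call did not pass under the other scalings either. The miR-143 and miR-145 cluster had 0 of 4, the miR-181 family 0 of 7 and the family of miR-34 and miR-449 0 of 5 arms called. Of 17 arms known to respond to flow or strain in vascular cells 0 were called as deposited and 3 were higher under median-of-ratios and TMM scaling. With the block 6 of the 17 were lower, a share under the 41.9% of all tested miRNAs. The median of the 17 arms, -0.77, lay close to the -0.72 of all tested miRNAs. Of the Dlk1-Dio3 domain, silent in many cultured cells, 33 of 104 arms had a read and 3 were tested, and none of these was called.

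The remaining lists held a few lower members each. Over all tested miRNAs 18.7% were lower, and 7.83% under all 4 scalings. Of 12 tested arms of miR-26, miR-103, miR-107, miR-148 and miR-152, several of them hosted in introns, 5 were lower, among them miR-107-3p at 1931, 1621 and 3663 in KDEL and at 859, 170 and 836 in SUN1L libraries. miR-196b-5p and miR-10b-3p, both from Hox clusters, were lower under all 4 scalings, as 2 of 5 tested arms, whereas miR-10a-5p and miR-10b-5p overlapped. Under median-of-ratios and TMM scaling 2 other arms of the 5 were higher, and under quantile scaling 0 were. In the sensory organ cluster of miR-182, miR-183 and miR-96, 2 of 5 arms were lower, miR-182-3p and miR-96-3p, both passenger arms. miR-194-5p, linked to p53 and to gut and liver, was at 413, 265 and 514 in KDEL and at 117, 17.8 and 123 in SUN1L libraries, the 1 lower arm of 3.

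Among 16 arms induced by inflammation, serum or other stimuli 3 were lower, a share close to the 18.7% of all tested miRNAs. One of the 3 was miR-212-3p, an arm of a CREB-induced hairpin, at 16.8, 12.8 and 14.6 in KDEL and at 4.15, 3.56 and 4.0 in SUN1L libraries. Of 6 arms that bypass Drosha only miR-484 was lower, as deposited but not under quantile scaling. Of 11 neural arms miR-184-3p was higher and miR-9-3p lower. The lists of miR-23, miR-27 and miR-24 had 2 of 11 arms lower, that of miR-99, miR-100 and miR-125 2 of 10, that of miR-130 and miR-301 1 of 8 and that of miR-199 and miR-214 1 of 6, shares near or under the 18.7% of all tested miRNAs. miR-28, miR-151 and miR-708 had 0 of 6 called as deposited and 2 higher under median-of-ratios scaling. Of the fibroblast markers 4 of 20 arms were lower, a share close to that of all tested miRNAs, and 1 of them under all 4 scalings. Muscle miRNAs had 0 of 2 called, and of the 79 arms of the Sfmbt2 cluster 6 had a read and 0 were tested.

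**Figure D4:**
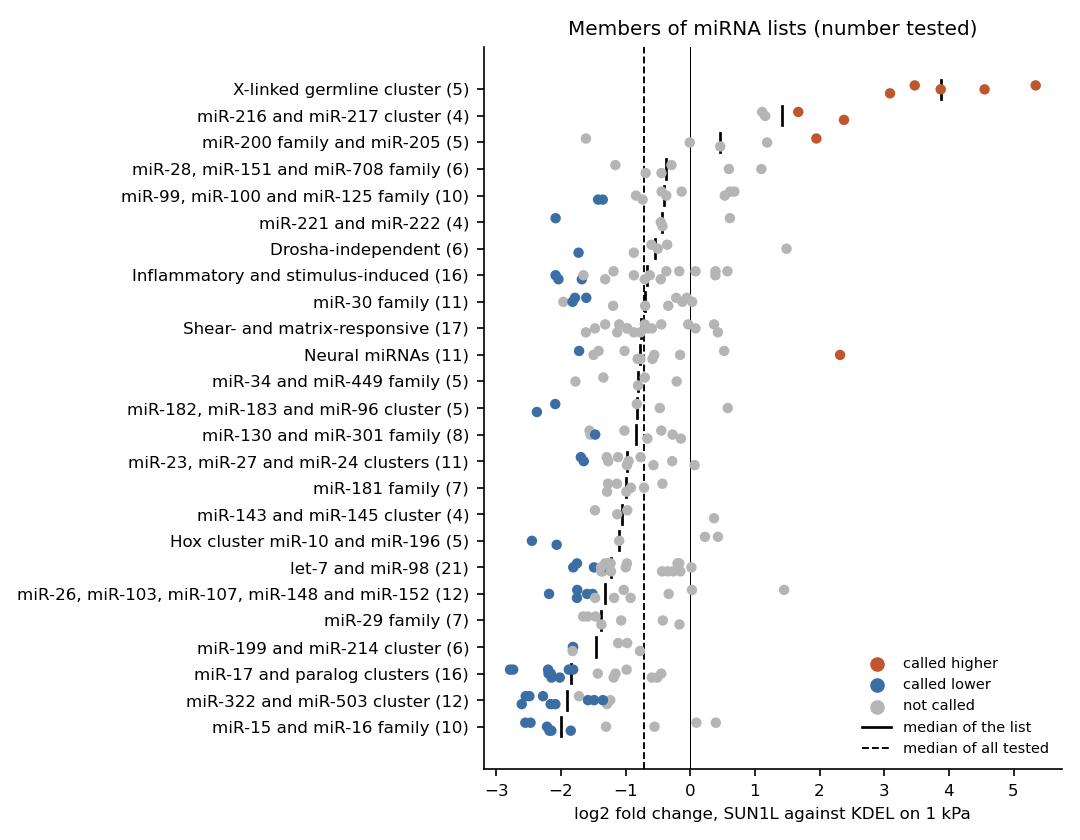
Log2 fold change of SUN1L against KDEL on 1 kPa (x axis) for the tested members of lists with at least 4 tested arms, one point per arm, with a bar at each list's median and a dashed line at the median of all 396 (-0.72). The X-linked germline list lies at 3.09 to 5.34, and the lists of miR-15 and miR-16, of miR-322 and miR-503, and of miR-17 have the lowest medians.

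The ratio of the 2 arms of a hairpin does not depend on the scaling of the libraries. Of 110 hairpins with both arms tested, 11 (10.0%) had a higher 5p to 3p ratio in the SUN1L line and 11 (10.0%) a lower one (limma on the log2 ratio, Benjamini-Hochberg over the 110). These calls were fragile, since 0 were left with any one of the KDEL libraries or SUN1L library 3 left out, while 48 of the 110 passed at an unadjusted p under 0.05. In the 12 untreated libraries 25 shifted toward each arm, and with the run block 20 shifted toward 5p and 28 toward 3p.

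The largest shift toward 5p was that of miR-532. Its log2 ratio was 4.22, 5.46 and 4.87 in KDEL and 6.56, 8.65 and 7.95 in SUN1L libraries, a difference of 2.87 ± 0.56 (limma adjusted p = 0.0352), in which miR-532-3p was lower and miR-532-5p was not called. miR-10b, of the Hox clusters, shifted by 2.68 ± 0.53, from 9.02, 9.71 and 9.12 to 11.2, 13.2 and 11.5. miR-10b-5p was at 87670, 108320 and 117530 in KDEL and at 99321, 119350 and 151450 in SUN1L libraries, while miR-10b-3p was at 168, 129 and 211 against 41.5, 11.9 and 51.3. Also toward 5p moved miR-455, miR-212, miR-221, miR-182, miR-152, miR-29c, miR-21a, miR-27a and miR-222. In each of the 11 the groups did not overlap, but this was also so in many hairpins that were not called, such as miR-10a, miR-9 and miR-96.

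The largest shift toward 3p was that of miR-195a, whose log2 ratio was 0.83, -0.39 and 0.47 in KDEL and -1.07, -3.76 and -1.89 in SUN1L libraries, a difference of -2.54 ± 0.65 (limma adjusted p = 0.0394). miR-708 went from -0.09, -0.04 and 0.16 in KDEL, nearly equal arms, to -1.41, -3.30 and -2.04 in SUN1L libraries (difference -2.26 ± 0.48, limma adjusted p = 0.0352). Here the arms moved apart. miR-708-5p was at 301, 322 and 358 against 213, 68.8 and 211, and miR-708-3p at 321, 331 and 320 against 566, 685 and 869, and neither arm alone was called as deposited. miR-17 and miR-31 changed the ratio while both arms had log2 fold changes below 0, since the 5p arm had the lower one. The other shifts toward 3p were those of miR-674, miR-143, miR-361, miR-501, miR-339, miR-140 and let-7d.

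The arm that was lower in the SUN1L line was not always the minor one. The less abundant arm had the lower log2 fold change in 67 of the 110 hairpins and in 13 of the 22 called ones. Of the more abundant arms 25 were called lower and of the less abundant arms 30, with both arms lower in 9 hairpins. In miR-17, miR-31, miR-339 and let-7d the abundant 5p arm was the one with the lower value.

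**Figure D5:**
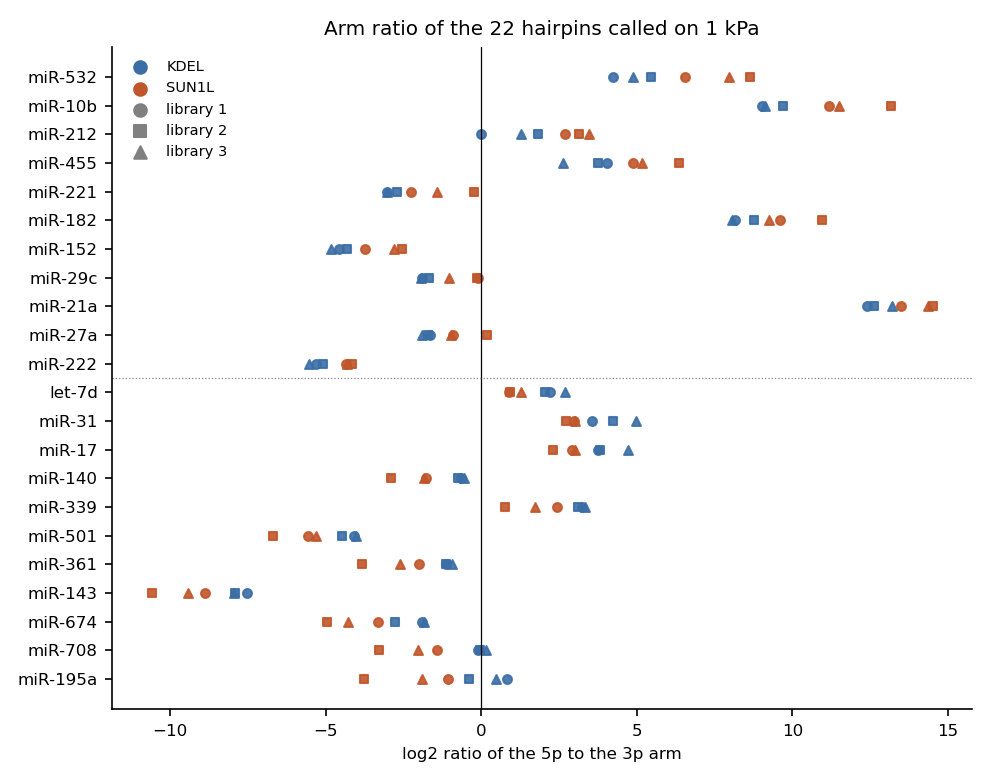
Log2 ratio of the 5p to the 3p arm (x axis) in each of the 6 libraries for the 22 hairpins called on 1 kPa, those below the dotted line shifted toward 3p in the SUN1L line and those above it toward 5p. The KDEL and SUN1L libraries do not overlap in any of them, as for miR-532, at 4.22 to 5.46 in KDEL and 6.56 to 8.65 in SUN1L libraries. The same holds for many hairpins that were not called and are not shown.

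Sequence and level were described for the 355 of 396 tested miRNAs that matched RefSeq. The median GC content was 45.5% in the lower miRNAs, 47.8% in the higher ones and 50.0% in those not called, and the median length was 22 bases in each. miRNAs with a GC content under 45% had a median log2 fold change of -1.10 (119 miRNAs) and the others of -0.63 (236 miRNAs), although across all 355 the correlation was weak (Pearson r = 0.08, Spearman rho = 0.15). The log2 fold changes also followed the departure of the third blebbistatin library from the 2 others of its group, with r = 0.78 and rho = 0.85 across 396 miRNAs. These miRNAs share their libraries and are not independent replicates. That library holds the fewest reads of the series, and the part of GC content or of its departure in the lower miRNAs was not tested.

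On the 308 kPa gel, with other libraries of the same 2 lines, 21 (4.73%) of 444 tested miRNAs were higher and 1 (0.225%) lower (limma, Benjamini-Hochberg), and 32 and 12 with the run block. Of the 9 miRNAs higher on 1 kPa 7 were also higher there, namely the 5 X-linked ones, miR-216a-3p and miR-217-5p. Of the 74 lower ones only miR-450b-5p, of the miR-322 and miR-503 cluster, was also lower as deposited without the block. With the block others of the 74 were lower too, namely miR-503-5p, miR-503-3p, miR-322-5p, miR-362-3p, miR-33-3p and miR-199b-5p. miR-450b-5p was at 3610, 2713 and 2301 in KDEL and 1092, 625 and 1502 in SUN1L libraries on 1 kPa, and at 6569, 2835 and 2926 against 1331, 1530 and 1688 on 308 kPa. Its log2 fold change was -1.49 on 1 kPa and -1.33 on 308 kPa, and on 308 kPa its call was lost under quantile scaling and with any one of the SUN1L libraries of that gel left out (limma adjusted p = 0.225, 0.144 and 0.097). The 1 lower call without SUN1L library 3 was miR-33-3p, which is also among the 74. Across the 396 miRNAs the log2 fold changes on the 2 gels correlated, with r = 0.76 and rho = 0.63. The median log2 fold change of the 74 was -0.33 on 308 kPa, where in 13 of them the SUN1L libraries lay below and in 0 above the KDEL libraries, against 22 (5.56%) below and 51 (12.9%) above among all 396.

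Whether the SUN1L effect differed between the gels was tested as an interaction in the 12 untreated libraries, and without a block 0 of 396 miRNAs passed (limma, lowest adjusted p = 0.125). At an unadjusted p under 0.05 there were 112, of which 3 had the higher effect on 1 kPa, and edgeR also gave 0. Leaving out SUN1L library 1 on 1 kPa gave 19 with a lower effect on 1 kPa. The result turned on the run block, which was added here after the data were seen. With it 71 miRNAs had a lower effect on 1 kPa, 49 of them among the 74, and 0 a higher one, and with a separate run term on each gel 100 and 0. The 74 were chosen by the same 1 kPa difference that enters the interaction, so the 49 are partly fixed by that choice. Over all 396 the median interaction was -0.77 as deposited and 0.05 under median-of-ratios scaling. The part of the scaling in the direction of the 71 was not tested. Together with median-of-ratios scaling the block gave 0 in both directions (lowest adjusted p = 0.052), and with quantile scaling 6 lower and 9 higher. miR-17-5p had a log2 fold change of -2.79 on 1 kPa and -0.36 on 308 kPa, a difference of -2.42 that did not pass without the block (limma adjusted p = 0.125) and passed with it (adjusted p = 0.0276). miR-184-3p and miR-200a-5p, called on 1 kPa but not on 308 kPa, differed by 1.36 and 1.59, without passing in either fit (limma adjusted p = 0.125 for both, and 0.0603 and 0.0666 with the block). With the block and quantile scaling together they passed (adjusted p = 0.0452 for both).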

How the data were processed

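Small RNA of NIH 3T3 cells was sequenced in 18 libraries, 6 of which are compared here. The deposited table holds 1 signal value per mature miRNA and library, normalized by the authors, with a floor of 1. The study trimmed reads, aligned them with AvadisNGS and counted mature miRNAs by their 5′ end. Within each library every value above the floor was a whole multiple of 1 factor (tolerance 0.01 read), except the highest values, which were not checked. Values above the floor were divided by this factor, rounded and taken as reads. A value of 1 was counted as 0 reads, although in 3 of the 6 libraries 1 read is worth less than 1. Of 2035 entries, copies of 77 names were reduced to 1 each, leaving 1900, of which 910 exceeded the floor and 396 were tested, those that reached 10 in 3 or more of the 6 libraries. The submitters name mm9, but 1589 of 1603 names matched in RefSeq lay at the identical GRCm38 position, and positions are given in that build.

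limma (version 3.58.1, R 4.3.3) with an intensity trend was fitted to log2(value + 1) of the 6 libraries, with Benjamini-Hochberg adjustment and calls at an adjusted p under 0.05. Fold changes on this scale shrink near the floor. edgeR (4.0.16) and DESeq2 (1.42.0) were run on the recovered reads. The code was tested on simulated data. Other scalings, pseudocounts, filters, sets of libraries and leaving out each library were tried. In the untreated libraries the library numbers in the labels run in order by set. Some blebbistatin-treated libraries depart from this order, and no fit with a block used them. The deviations of KDEL and SUN1L libraries of one run from their group means correlated at r = 0.33, 0.52 and 0.39 across miRNAs. A fit with run as a block is therefore given. On 308 kPa the same correlations were 0.25, 0.14 and 0.41. Named miRNAs were those of largest change and highest mean among calls, the 10 of highest mean, up to 4 of highest mean per list or seed family, the arm ratios of largest change and the 10 of lowest interaction p. Others named were chosen after their values were seen. The comparison, the 31 lists and the tests were chosen with earlier results of these data known.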

Additional observations from a re-analysis of the deposited data

How the results depend on the processing

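On 1 kPa the counts depended on the setting. TMM scaling gave 54 higher, median-of-ratios scaling 54, quantile scaling 42 higher and 35 lower, edgeR 58 and DESeq2 68 higher, a filter over 18 libraries 16 higher, and array weights 22 higher and 118 lower. The fit of the 12 untreated libraries gave 23 higher and 148 lower, 17 libraries without the third blebbistatin library 27 and 172, and all 18 libraries 5 and 0. A replicate block for each run of library numbers gave 24 higher and 166 lower. Without a filter, over 910 miRNAs, 2 were lower, of which 0 were among the 74, and 6 of the 9 higher ones were shared. Combined alternatives chosen after seeing the data gave 70 higher with median-of-ratios and 60 with quantile scaling of the 12 untreated libraries. Leaving out 1 library gave 5 to 21 higher and 0 to 110 lower. Of the 47 named miRNAs called, all kept their direction in every setting run, and 5, the X-linked ones, kept their call in all. The 47 were called in these same libraries with groups that did not overlap, so their direction was largely fixed in advance. On 308 kPa the lower count of 1 became 2 under median-of-ratios scaling and with edgeR and 0 under quantile scaling and with 18 or 17 libraries, and 0 to 2 with a library left out. The second one, under median-of-ratios scaling and with edgeR, was miR-503-5p, also among the 74. The run block, added there after the data were seen, gave 32 higher and 12 lower. The interaction count of 0 lower ran from 0 to 19 with a library left out, and the block gave 71, or 100 with its own term on each gel, and with quantile scaling 6 lower and 9 higher. The arm ratios gave 25 toward each arm with 12 libraries, and 0 to 21 toward 5p and 0 to 20 toward 3p with a library left out, and 20 and 28 with the block. Counting the floor as 1 read where 1 read is worth less than 1 moved the KDEL mean of the X-linked reads from 2.77 to 5.96 per 1e6, against 92.2 in SUN1L libraries. The cause of these changes was not tested. At 2.77 to 8.49 times 1e6 reads per library, miRNAs near the floor could not be resolved.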

Other observations

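Some values outside the comparisons stood out by library and were chosen after they were seen. miR-451a, a miRNA of red blood cells, was at 2.51, 2.13 and 1.54 in KDEL and at 1.04 and 1.0 in SUN1L libraries 1 and 2, but at 49.9 in SUN1L library 3. miR-15b-3p was at 44.4, 3.19 and 75.5 in KDEL and at 6.22, 2.37 and 188 in SUN1L libraries, a spread within both groups that its other arm, miR-15b-5p, did not show. miR-122-5p, the main miRNA of liver, was at 13.4, 11.7 and 17.7 in KDEL and at 23.8, 27.3 and 35.3 in SUN1L libraries, without overlap but not called as deposited (limma adjusted p = 0.094).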
